A study of Mus musculus with 6 samples.

Results

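The genes described here are 10 genes through which colon epithelial cells make bicarbonate and move it, with chloride, sulfate, sodium and protons, across their membranes. They were taken by symbol from the 18477 genes of the deposited count table: the carbonic anhydrases Car1, Car2, Car4 and Car12, the anion exchangers Slc26a3 and Slc26a2, the sodium/proton exchangers Slc9a2 and Slc9a3, the sodium bicarbonate cotransporter Slc4a4 and the chloride and bicarbonate channel Cftr. All 10 were in the table, and all 10 passed the filter on low counts.

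Absorption of salt and water in the colon rests on exchangers that work in pairs at the apical membrane of surface colonocytes. Carbonic anhydrase turns carbon dioxide and water into a proton and bicarbonate inside the cell. The proton leaves through a sodium/proton exchanger and the bicarbonate through a chloride/bicarbonate exchanger, so that sodium chloride enters and water follows. Crypt cells can instead secrete chloride and bicarbonate through Cftr, with bicarbonate taken up at the basolateral membrane by cotransporters such as Slc4a4.

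Colon RNA came from male C57BL/6 mice, 6 to 8 weeks old, that all drank water with 2% (w/v) dextran sulfate sodium (DSS), which damages the colon lining and causes colitis, from day 8 to day 14. The DSS group (n = 3 mice) was gavaged with PBS and the DSS+BV group (n = 3 mice) with *B. vulgatus*, a gut bacterium, in PBS, once a day for 14 days. Both groups had therefore received DSS, and mice without DSS were not analysed here, so a level cannot be called normal or low against healthy colon. Each mouse gave 1 library, and the question was how the colon of mice given the bacterium differed from that of mice given DSS alone. Expression is given as CPM, the expected count scaled to a common library total with TMM factors, which even out the bulk of genes between libraries. Values are from whole tissue, so more cells of a type and more RNA per cell cannot be told apart. A gene was called where its adjusted p-value in edgeR's quasi-likelihood test was under 0.05 and its absolute log2 fold change, DSS+BV against DSS, over 1.

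Library totals lay between 15293276 and 17254343 expected counts. The fewest counts behind a value of the 10 genes were 343, for Cftr in DSS 3 (95% exact Poisson interval 307.7 to 381, for counting error only). All 14 epithelial markers, Epcam among them, were present in each library, and their summed level was 13618 to 15628 CPM in the DSS mice and 17035 to 22065 CPM in the DSS+BV mice. The epithelium score, the mean log2 CPM of the 14 markers, was 0.38 higher in the DSS+BV group, with no overlap (exact two-sided permutation test, p = 0.1, the smallest that 3 against 3 mice allow). The neutrophil markers summed to 207.8 to 298.5 CPM in the DSS mice and 18.1 to 37.7 CPM in the DSS+BV mice, with Ngp and Camp at 0 in some libraries and S100a8 at 30.4 to 46.3 CPM and 1.47 to 2.09 CPM. The 8 fibroblast markers, none at 0, summed to 3774 to 4117 CPM and 1353 to 1992 CPM. The differentiated colonocyte markers, Krt20 among them and none at 0, overlapped between the groups, at 9587 to 14813 CPM and 11142 to 15424 CPM. Libraries also differed within groups. The B and plasma cell markers, none at 0, summed to 816 to 1975 CPM and 486 to 1457 CPM in the respective groups, and the distal colon Hox genes to 58.9 to 344 CPM and 13.97 to 340.5 CPM, with Hoxb13 at 0 in DSS+BV 3 and Hoxd12 at 0 in DSS 2 and DSS+BV 3. The part of any of these in the results was not tested.

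Of the 10 genes, 0 were called lower and 0 higher in the DSS+BV group, where edgeR called 0.0892% of all 14579 tested genes lower and 0% higher. At an unadjusted p under 0.05, 2 of the 10 were higher, Slc4a4 and Car1, and 0 were lower, against 3.4% and 9.12% of all tested genes. DESeq2 called the same pair higher and 0 lower, against 0.279% and 1.73% of the genes to which it gave an adjusted p-value. In 1 of the 10, Slc4a4, every DSS+BV mouse was above every DSS mouse, which held for 6.37% of all tested genes. In 0 of the 10 was every DSS+BV mouse below every DSS mouse, against 11.3% of all tested genes. The fitted log2 fold change was above 0 for 9 genes and below 0 for Car4, with a median of 0.51, beside a median of -0.01 over all tested genes. Scaled to the epithelial markers, the median of the 10 was 0.19 and Slc26a3 was also below 0, and without DSS 2 the median was 1.25.

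**Figure D1:**
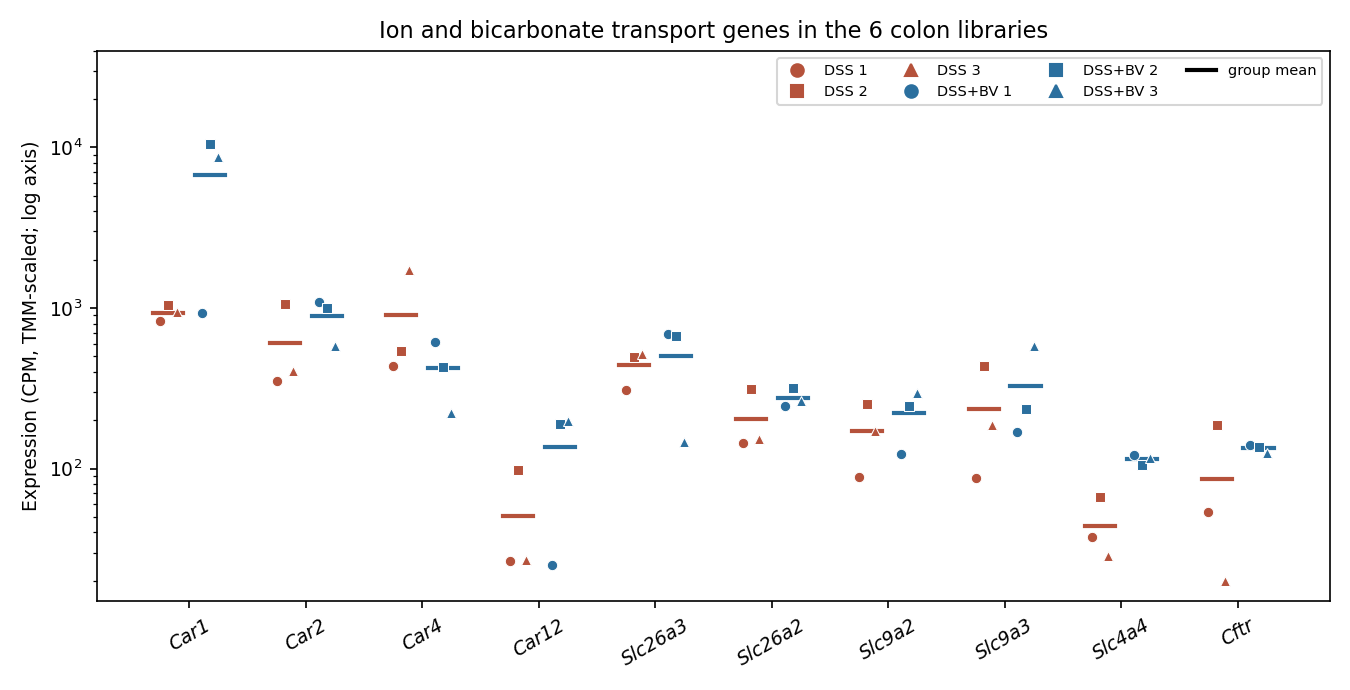
Expression of the 10 genes in CPM (log axis) in each colon library, with a point per mouse and a bar at the group mean (3 DSS mice, 3 DSS+BV mice). Slc4a4 is separated between the groups, while Car1 lies between 825 and 1041 CPM in the 3 DSS mice and DSS+BV 1 and far above them in DSS+BV 2 (10453 CPM) and DSS+BV 3 (8702 CPM).

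Gene positions are given on mouse GRCm38 with GENCODE M21 extents. The 4 carbonic anhydrases differ in where they sit. Car1 and Car2 are enzymes of the cytosol, Car4 is anchored by a lipid to the outer face of the apical membrane, and Car12 spans the membrane with its active site outside the cell. Car1 (Entrez gene 12346; 3:14766216-14808368) was at 825, 1041 and 939 CPM in DSS 1, 2 and 3, a narrow range with a highest value 1.26 times the lowest. In the DSS+BV mice it was at 924, 10453 and 8702 CPM. DSS+BV 1 therefore lay within the DSS range, and the other DSS+BV mice lay far above it. The log2 fold change of 2.84 (standard error 0.80, 95% interval 0.92 to 4.76; edgeR adjusted p = 0.313) did not pass. Its size and whether it passed depended on which mice were counted. Without DSS+BV 1 it was 3.37 (standard error 0.27) and passed (edgeR adjusted p = 0.0404). Without DSS+BV 2 it was 2.37 (standard error 0.83, edgeR adjusted p = 0.903). In that fit edgeR called 0 of all tested genes lower and 0 higher, and Slc4a4 was also far from passing (edgeR adjusted p = 0.870). With DESeq2 the log2 fold change was 2.86 (adjusted p = 0.00272).

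Car1 ranked 2nd of all genes by CPM in DSS+BV 2 and 5th in DSS+BV 3, against ranks of 57 to 92 in the other 4 libraries. Its share of all expected counts was 1.01% in DSS+BV 2 (95% Wilson interval 1.01% to 1.02%) and 0.848% in DSS+BV 3 (0.844% to 0.853%). These intervals cover counting error only, not the spread between mice. In the other libraries that share was 0.0857% in DSS 1, 0.107% in DSS 2, 0.0934% in DSS 3 and 0.0916% in DSS+BV 1. Of the summed CPM of the 4 carbonic anhydrases, Car1 made up 86.6% in DSS+BV 2 and 89.7% in DSS+BV 3, and between 30.2% and 50.3% in the rest. This share is not adjusted for transcript length and serves to compare libraries. In those 2 mice Car2 lay within the range of the other libraries.

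Car2 (Entrez gene 12349; 3:14886273-14900770), the fast cytosolic enzyme, was at 352, 1061 and 405 CPM in DSS 1, 2 and 3, while DSS+BV 1, 2 and 3 gave 1089, 1005 and 579 CPM. DSS 2 stood with the upper DSS+BV mice and DSS+BV 3 between them and the other DSS mice, so the groups overlapped. For Car2 the fitted log2 fold change was 0.56 (standard error 0.47, 95% interval -0.58 to 1.69; edgeR adjusted p = 0.656). Compared between libraries, without adjustment for length, the ratio of Car1 to Car2 CPM was 0.849 in DSS+BV 1 and 0.981 in DSS 2, 2.32 in DSS 3 and 2.35 in DSS 1, and 10.4 in DSS+BV 2 and 15.03 in DSS+BV 3.

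Both genes lie in a cluster on mouse chromosome 3 that spans 259 kb and holds, in order, Car13, Car1, Car3 and Car2. The neighbours did not share one pattern. Car13, another cytosolic enzyme, was at 41.97, 36.9 and 26.7 CPM in the DSS mice, while the DSS+BV mice gave 45.6, 56.4 and 54.8 CPM. Its groups did not overlap, and its log2 fold change was 0.57 (edgeR adjusted p = 0.358). Car3, taken here for its position and typical of muscle and fat, was at 6.89, 11.9 and 27.1 CPM in the DSS mice, while the DSS+BV mice gave 15.1, 14.3 and 0.885 CPM. DSS+BV 3, with 8702 CPM of Car1, was the library with the least Car3, while DSS+BV 2, with 10453 CPM of Car1, had 14.3 CPM of Car3.

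Car4 (Entrez gene 12351; 11:84957786-84966044) had its highest value, 1736 CPM, in DSS 3. It was at 437 and 537 CPM in DSS 1 and 2, while DSS+BV 1, 2 and 3 gave 611, 428 and 223 CPM. The groups overlapped, with DSS+BV 3 lowest, and the log2 fold change was -1.10 (standard error 0.61, 95% interval -2.56 to 0.36; edgeR adjusted p = 0.503). Without DSS 3 it was -0.21. The ratio of Car4 to Car1 CPM was 1.85 in DSS 3, 0.041 in DSS+BV 2 and 0.0257 in DSS+BV 3. Per kb of exon, Car4 stood above Car1 in DSS 3, at 883 against 752 CPM per kb, and below it in the other 5 libraries.

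Car12 (Entrez gene 76459; 9:66713686-66766845) was at 26.4, 97.7 and 26.8 CPM in DSS 1, 2 and 3, while DSS+BV 1, 2 and 3 gave 25.1, 189 and 198 CPM. DSS 1, DSS 3 and DSS+BV 1 were nearly alike, DSS 2 was above them, and DSS+BV 2 and 3 were highest. The log2 fold change of 1.45 had a 95% interval of -0.56 to 3.46 (standard error 0.84, edgeR adjusted p = 0.522). It ranged from 1.09 without DSS+BV 3 to 2.38 without DSS 2.

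Slc26a3, known as DRA, is the chloride/bicarbonate exchanger of the apical membrane, and its loss causes chloride diarrhoea. Slc26a3 (Entrez gene 13487; 12:31390871-31473917) was at 309, 499 and 515 CPM in the DSS mice, while the DSS+BV mice gave 685, 667 and 146 CPM. DSS+BV 1 and 2 had the highest values and DSS+BV 3 the lowest of all 6. For Slc26a3 the log2 fold change was 0.18 (standard error 0.55, 95% interval -1.15 to 1.505; edgeR adjusted p = 0.915), and its sign turned when any one of DSS 1, DSS+BV 1 and DSS+BV 2 was left out (-0.018, -0.11 and -0.081). Slc26a2 (Entrez gene 13521; 18:61192919-61211612), the sulfate transporter that feeds sulfation of mucins, was at 144, 313 and 152 CPM in the DSS mice, while the DSS+BV mice gave 245, 316 and 264 CPM. DSS 2 was level with the highest DSS+BV mouse, and the other DSS mice were below all DSS+BV mice. Its log2 fold change was 0.44 (standard error 0.32, 95% interval -0.33 to 1.203; edgeR adjusted p = 0.606). Between libraries, the ratio of Slc26a3 to Slc26a2 CPM lay between 1.59 and 3.39 in 5 libraries and was 0.551 in DSS+BV 3.

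Slc9a2 and Slc9a3, known as NHE2 and NHE3, exchange luminal sodium for protons at the apical membrane. Slc9a3 (Entrez gene 105243; 13:74121457-74169442) was at 87.1, 436 and 186 CPM in the DSS mice, while the DSS+BV mice gave 168, 235 and 576 CPM. Slc9a2 (Entrez gene 226999; 1:40680574-40769273) was at 89.1, 251 and 171 CPM in the DSS mice, while the DSS+BV mice gave 123, 246 and 294 CPM. The order of the libraries was the same for both, with DSS+BV 3, DSS 2 and DSS+BV 2 above DSS 3, DSS+BV 1 and DSS 1, so the groups were interleaved. On the log2 scale the fold change was 0.47 for Slc9a3 (95% interval -1.14 to 2.07; edgeR adjusted p = 0.798) and 0.38 for Slc9a2 (95% interval -0.69 to 1.44; edgeR adjusted p = 0.753). Without DSS+BV 3, that of Slc9a3 was -0.23.

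Slc4a4, known as NBCe1, carries sodium and bicarbonate together into the cell from the basolateral side. Slc4a4 (Entrez gene 54403; 5:88886818-89239653) was at 37.4, 66.7 and 28.4 CPM in DSS 1, 2 and 3, while DSS+BV 1, 2 and 3 gave 121, 105 and 117 CPM. The lowest DSS+BV mouse was above the highest DSS mouse, and the DSS+BV mice lay close together, with a highest value 1.15 times the lowest against 2.35 times in the DSS group. The group means were 44.2 ± 20.0 CPM and 114 ± 8.33 CPM (SD, n = 3 each). The log2 fold change was 1.37 (standard error 0.31, 95% interval 0.63 to 2.11), a 2.58-fold difference, and did not pass after adjustment over all tested genes (edgeR adjusted p = 0.241). With DESeq2 it passed, at 1.39 (adjusted p = 0.00462). With each library left out in turn, the log2 fold change stayed between 1.13 and 1.81.

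Since the epithelium score did not overlap between the groups, the 10 genes were also measured with libraries scaled to the epithelium list, which moved the median log2 fold change of all tested genes by -0.38. On this scale Slc4a4 was still without overlap between the groups, with a log2 fold change of 1.03 (edgeR adjusted p = 0.119, standard error 0.28). Car1 was at 2.41 (edgeR adjusted p = 0.127) and Car4 at -1.46 (edgeR adjusted p = 0.183). Slc9a2 and Slc26a2 were near 0, at 0.020 and 0.087, and Slc26a3 changed sign, to -0.18.

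**Figure D2:**
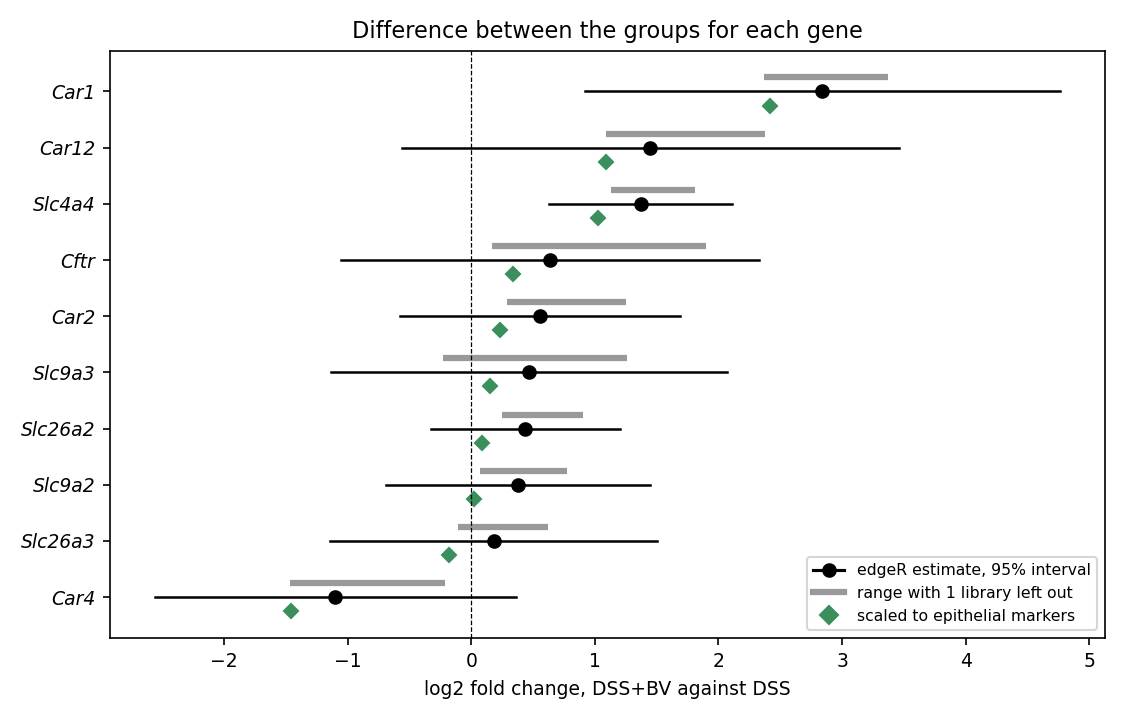
Log2 fold change of each of the 10 genes, DSS+BV against DSS, as the edgeR estimate with its 95% interval (black), the range with 1 library left out (grey) and the estimate scaled to epithelial markers (green). The intervals of Car1 and Slc4a4 lie above 0 and the other 8 span it.

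Cftr (Entrez gene 12638; 6:18170687-18322768), the channel mutated in cystic fibrosis, was at 53.4, 186 and 20.0 CPM in DSS 1, 2 and 3, while DSS+BV 1, 2 and 3 gave 141, 136 and 126 CPM. The DSS mice differed 9.29-fold among themselves and bracketed the DSS+BV mice, which differed 1.12-fold. The coefficient of variation was 101% for the DSS mice and 5.75% for the DSS+BV mice. The log2 fold change of 0.64 had a 95% interval of -1.06 to 2.33 (edgeR adjusted p = 0.734) and was 1.90 without DSS 2. The difference in spread between the groups was not tested.

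Variation between mice of a group was wide for most of the 10 genes. The highest and lowest mouse differed by more than 1 on the log2 scale in 8 of the 10 genes among DSS mice and in 6 among DSS+BV mice. Over all tested genes this held for 23.5% and 14.2%. The median range was 1.54 and 1.35 log2 units for the 10 genes, beside 0.58 and 0.37 for all tested genes. Car1 and Slc26a3 were the genes with ranges under 1 in the DSS group, and Slc26a2, Slc4a4, Cftr and Car2 in the DSS+BV group. Car1 thus went from the narrowest range of the 10 among DSS mice to the widest among DSS+BV mice, with values that differed 11.3-fold.

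The libraries were not ordered by group in most of the 10 genes. DSS 1 was the lowest library for 5 genes, Car1, Car2, Slc26a2, Slc9a2 and Slc9a3, and the highest for 0. In 5 genes, Car1, Car12, Slc26a2, Slc9a2 and Slc9a3, the 3 highest libraries were DSS 2, DSS+BV 2 and DSS+BV 3, a pattern noted after the values were seen that held for 11.4% of all tested genes. Cdx2, a transcription factor of intestinal identity, had the same 3 libraries highest, at 176, 192 and 327 CPM, against 39.9 to 60.5 CPM in the other 3. Cyp2c55, a cytochrome P450 of the colon, did too, at 833, 2714 and 3776 CPM, against 8.32 to 133 CPM. Among the 14 epithelial markers, Cdx2 was the only one with these 3 libraries highest. Cdx1 was at 232, 218 and 120 CPM in the DSS mice and 265, 248 and 266 CPM in the DSS+BV mice. The distal colon Hox genes had their lowest sums in DSS 2, DSS+BV 2 and DSS+BV 3, at 58.9, 165.7 and 13.97 CPM. In the other libraries they summed to 192.3 to 344.1 CPM. The B and plasma cell markers were also lowest there, at 816, 529 and 486 CPM, against 957 to 1975 CPM. The part of either in the pattern was not tested. DSS+BV 3 was the lowest library for Car4 and Slc26a3 while it was the highest for Car12, Slc9a2 and Slc9a3.

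**Figure D3:**
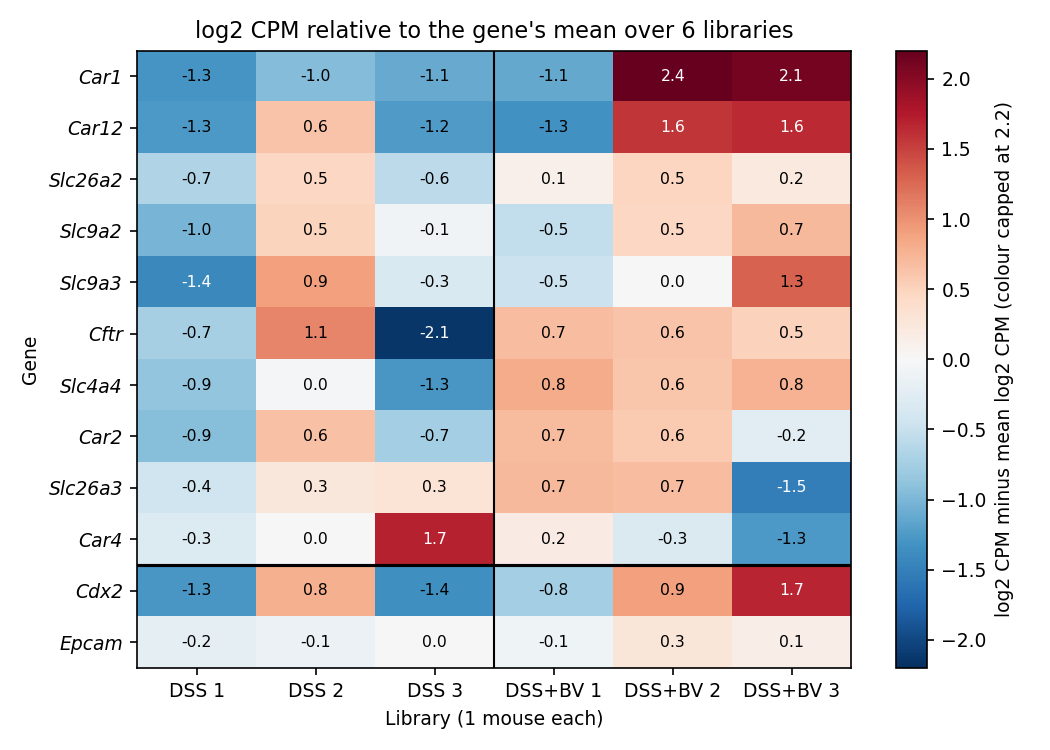
Log2 CPM of each of the 10 genes, with Cdx2 and Epcam below the line, relative to the gene's mean over the 6 libraries (columns; 3 DSS, 3 DSS+BV). Car1, Car12, Slc26a2, Slc9a2 and Slc9a3 have DSS 2, DSS+BV 2 and DSS+BV 3 as their 3 highest libraries. For Car1, DSS 2 (1041 CPM) lies near DSS 3 (939 CPM) and far below DSS+BV 2 and DSS+BV 3. Car4 and Slc26a3 are lowest in DSS+BV 3.

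Promoter sequences are shown for Slc4a4, whose groups did not overlap, and for Car12 and Slc9a3, which shared their 3 highest libraries with Cdx2. RefSeq windows on GRCm38.p6 were matched for 6 of the 10 genes, 7 windows in all. The 250 bases before a start are given 5′ to 3′ on the plus strand, on which all 3 genes lie, with GC boxes (GGGCGG on either strand) in capitals. The Slc4a4 window, chr5:89027716-89027965, precedes the downstream of its 2 RefSeq starts and lies within the gene. The Car12 window is chr9:66713436-66713685 and that of Slc9a3 is chr13:74121163-74121412.
Slc4a4: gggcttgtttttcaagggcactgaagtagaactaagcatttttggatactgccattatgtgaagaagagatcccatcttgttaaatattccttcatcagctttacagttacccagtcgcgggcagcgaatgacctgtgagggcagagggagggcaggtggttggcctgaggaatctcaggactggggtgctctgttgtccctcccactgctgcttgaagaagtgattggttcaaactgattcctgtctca
Car12: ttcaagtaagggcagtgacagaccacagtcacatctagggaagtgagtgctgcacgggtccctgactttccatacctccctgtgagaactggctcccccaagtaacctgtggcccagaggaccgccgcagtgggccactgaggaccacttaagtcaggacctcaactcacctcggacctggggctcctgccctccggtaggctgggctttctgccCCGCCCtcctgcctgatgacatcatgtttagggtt
Slc9a3: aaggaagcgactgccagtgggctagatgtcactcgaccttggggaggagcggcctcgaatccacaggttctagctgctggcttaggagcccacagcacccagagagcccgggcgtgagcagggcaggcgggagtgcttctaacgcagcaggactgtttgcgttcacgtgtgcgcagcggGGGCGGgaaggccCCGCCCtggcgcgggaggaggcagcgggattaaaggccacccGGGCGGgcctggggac
The Slc4a4 window shown held 0 GC boxes, that of Car12 1 and that of Slc9a3 3, and 32.7% of all promoter windows of this length held at least 1. The core that CDX factors bind, searched as TTTAT on either strand, was in 0 of the 3 windows and in 37.3% of all. The TATA box, searched as TATAAA, whose letters overlap TTTAT on the opposite strand, was in 0 of the 3 and in 12.4% of all. Both motifs were in 1 of the 7 windows, that of Slc26a3, and the Cftr window held 6 GC boxes. The window upstream of the other Slc4a4 start lies in an annotated exon, held 1 GC box and had 82% G and C, against 48.8% in the window shown. The counts are per gene and do not say which start was used.

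To compare levels between genes, CPM was divided by the length of all annotated exons of the gene in kb. This length, 1.25 kb for Car1 and 10.8 kb for Slc4a4, covers every annotated transcript and can exceed that of the one expressed. The order of genes depends on it. Car1 was highest in both groups, at 749 ± 86.5 CPM per kb with DSS and 5363 ± 4064 CPM per kb with DSS+BV (SD, n = 3 each). In the DSS group Car4 (459 ± 368 CPM per kb) and Car2 (250.1 ± 163 CPM per kb) followed, and the ranges of Car1 and Car4, and of Car4 and Car2, overlapped. Slc26a3 was next, at 69.2 ± 18.03 CPM per kb, below every value of Car2. From Slc26a3 down, through Slc9a3, Slc9a2, Slc26a2, Cftr and Car12 to Slc4a4 at 4.08 ± 1.85 CPM per kb, each gene's range overlapped that of the next. In the DSS+BV group Car1 was above every value of Car2, Car4 above every value of Slc26a3, and Slc4a4, with the lowest mean at 10.5 ± 0.770 CPM per kb, below every value of Cftr. Its range lay within that of Car12, which was at 3.31 CPM per kb in DSS+BV 1, below Slc4a4 in that mouse (11.2 CPM per kb). By group mean, Car1, Car2 and Car4 were thus the 3 highest per length and Slc4a4 the lowest. In DSS 3, Cftr was below Slc4a4, at 2.57 against 2.62 CPM per kb.

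Beyond the 10 genes, 75 related genes had a row in the table and 60 passed the filter on low counts. Of these 60, edgeR called 0 lower and 0 higher, against 0.0892% and 0% of all tested genes. At an unadjusted p under 0.05, 3 were lower and 4 higher, against 9.12% and 3.4% of all tested genes. Their median log2 fold change was 0.27. Every DSS+BV mouse was above every DSS mouse in 9 of the 60 and below in 4, against 6.37% and 11.3% of all tested genes. DESeq2 called 1 of them, Slc4a1, lower, against 1.73% of the genes to which it gave an adjusted p-value.

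Among the other carbonic anhydrases, 8 of 11 genes passed the filter. Beside Car13, Car15 was higher in every DSS+BV mouse, at 1.27 to 1.71 CPM against 0.359 to 1.22 CPM. These Car15 values rest on few counts, and DSS 3 (1.22 CPM) and DSS+BV 2 (1.27 CPM) nearly met. Over all tested genes, 6.37% were higher in every DSS+BV mouse and 11.3% lower. The mitochondrial enzyme Car5b was lower, at 3.29, 3.54 and 4.78 CPM in the DSS mice, while the DSS+BV mice gave 3.03, 0.956 and 1.201 CPM, a log2 fold change of -1.16 (edgeR adjusted p = 0.399).

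Of the other SLC4 transporters, 6 of 9 passed the filter. Slc4a1, Slc4a3 and Slc4a8 were each lower in every DSS+BV mouse, in contrast to Slc4a4. The other 3 had log2 fold changes above 0, as Slc4a4 did, with groups that overlapped. Of all tested genes, 11.3% were lower in every DSS+BV mouse. Slc4a1, the anion exchanger of red blood cells, was at 0.898, 1.68 and 1.398 CPM in the DSS mice, while the DSS+BV mice gave 0.264, 0.255 and 0.253 CPM. These are a few counts per library in the DSS+BV mice. Its log2 fold change was -2.33 (edgeR adjusted p = 0.175; DESeq2 adjusted p = 0.0366). The 6 erythrocyte markers, none at 0, summed to 212 to 432 CPM in the DSS mice and 41.8 to 178 CPM in the DSS+BV mice, and their part in the Slc4a1 values was not tested. The chloride/bicarbonate exchanger Slc4a3 had a log2 fold change of -0.75 (edgeR adjusted p = 0.32) and the sodium-driven exchanger Slc4a8 one of -0.95 (edgeR adjusted p = 0.392). Only 2 of 9 other SLC26 genes, Slc26a6 and Slc26a11, passed the filter on low counts, and both had groups that overlapped.

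Of the other sodium/proton exchangers, all 7 passed the filter, and edgeR and DESeq2 called 0 of them lower and 0 higher. Over all genes, edgeR called 0.0892% lower and 0% higher, and DESeq2 1.73% and 0.279%, so few or no calls are usual for so short a list.

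In the list of chloride channels, cotransporters, potassium channels and pumps, 4 of 18 tested genes were higher in every DSS+BV mouse, against 6.37% of all tested genes. These were Kcne3, Kcnn4, Clcn3 and Atp1b1. Kcne3, the subunit that keeps the basolateral potassium channel Kcnq1 open during chloride secretion, was at 85.0, 93.7 and 44.4 CPM in the DSS mice, while the DSS+BV mice gave 150, 151 and 113 CPM. Its log2 fold change was 0.89 (standard error 0.29, edgeR adjusted p = 0.344). Kcnn4, a calcium-activated potassium channel, had one of 0.65 (edgeR adjusted p = 0.432), and the DSS 2 and DSS+BV 1 values, 29.8 and 30.1 CPM, nearly met. Clcn3, an intracellular chloride/proton exchanger, and Atp1b1, a subunit of the sodium pump, had log2 fold changes of 0.21 and 0.27 (edgeR adjusted p = 0.591 and 0.554). Both were below the 0.38 by which the epithelium score was higher in the DSS+BV group, and the part of epithelial content was not tested.

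Of 19 tested regulators and scaffolds, 2 were higher in every DSS+BV mouse, against 6.37% of all tested genes. Stk39, a kinase that acts on chloride cotransporters, was at 24.6 to 35.6 CPM in the DSS mice and 41.0 to 45.8 CPM in the DSS+BV mice, and Lpar2, a lysophosphatidic acid receptor, at 2.55 to 3.09 CPM and 3.44 to 4.93 CPM. Neither passed (edgeR adjusted p = 0.388 and 0.456).

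**Figure D4:**
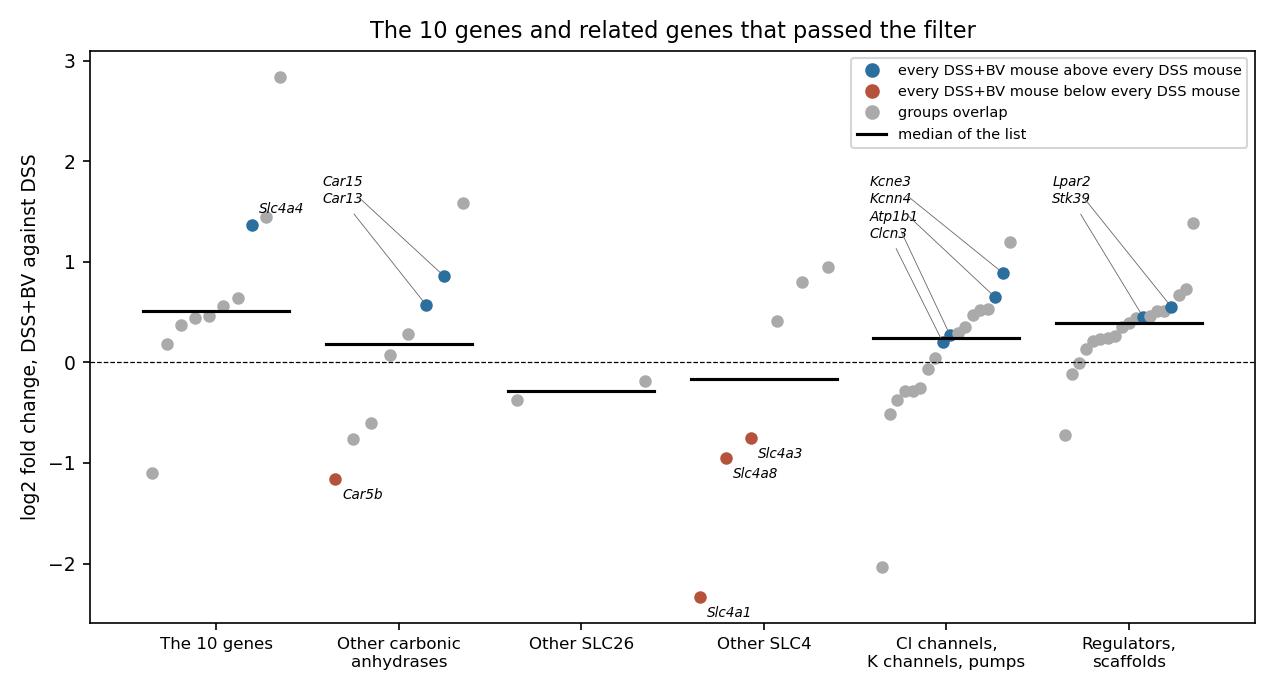
Log2 fold change, DSS+BV against DSS, of the 10 genes and of the related genes that passed the filter, by list, without the other sodium/proton exchangers; each point is a gene, coloured where the groups do not overlap, and the line is the list's median. Slc4a4 lies above 0 with groups apart, while Slc4a1, Slc4a3 and Slc4a8 lie below 0 with groups apart.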

How the data were processed

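Colon RNA of 6 mice was sequenced on a DNBSEQ-T7 instrument. The authors quantified genes with RSEM and deposited expected counts per gene, not scaled between libraries. The submitters' processing notes name RSEM 1.2.8, HISAT2 2.1.0, Bowtie2 2.2.5 and the build GRCm38.p6. Columns were matched to mice through the sample descriptions.

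Expected counts were rounded. Genes were kept with filterByExpr (minimum count 10, minimum total 15), scaled with TMM factors and fitted by group in edgeR 4.0.16 (R 4.3.3; quasi-likelihood test). P-values were adjusted over all 14579 tested genes by the Benjamini-Hochberg method. The 10 genes and all lists were chosen with earlier results of these data known. Intervals use 6.68 degrees of freedom. DESeq2 1.42.0, other factors and filters, a robust fit, a block for the replicate number, each library left out and scaling to epithelial markers (geometric mean) were alternatives. The edgeR test was also run on counts simulated with means and dispersions fitted to these data. All 10 genes are named, with up to 4 genes per related list whose groups did not overlap, by smallest p. A related gene that the rule names is not reported here. Gene extents and exon lengths are from GENCODE M21 (GRCm38), promoters and the order of the chromosome 3 cluster from RefSeq (GRCm38.p6).

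The epithelium score used a prior count of 2, and log2 ranges were taken after adding 0.5 CPM. Groups of 3 mice bound an exact permutation p at 0.1. Mice of a group differed by more than sampling noise (chi-square per degree of freedom 42.9 to 118.6 per pair). RSEM divides reads that match several genes, so values of near-identical genes are uncertain.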

Additional observations from a re-analysis of the deposited data

How the results depend on the processing

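The count of called genes among the 10 was 0 lower and 0 higher with RLE or upper-quartile factors, other filters, a robust fit, the adjusted p alone and scaling to epithelial markers. DESeq2 gave 2 higher, Car1 and Slc4a4, and 1 lower among the related genes. With 1 library left out, 0 to 1 were called higher (Car1 without DSS+BV 1, where edgeR called 4 of 14853 tested genes higher). The number with every DSS+BV mouse above every DSS mouse then ran from 1 to 4 (4 without DSS 2, 3 without DSS+BV 1, 2 without DSS+BV 3). Groups separate more easily with 1 mouse fewer, and the share of all tested genes in these settings was not counted. The median log2 fold change of the 10 ran from 0.27 to 1.25 with 1 library left out, highest without DSS 2, and was 0.19 scaled to epithelial markers. Of 140 values of single genes under 14 settings, 131 kept their sign and side of the threshold, 3 passed it and 6 changed sign. Slc26a3 changed sign with the replicate block (-0.040), scaled to epithelial markers (-0.18) and without DSS 1 (-0.018), DSS+BV 1 (-0.11) or DSS+BV 2 (-0.081), and Slc9a3 without DSS+BV 3 (-0.23). With 1 library left out their highest values were 0.62 and 1.26. The cause was not tested.

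Same-numbered mice did not pair: deviations from the group means correlated at 0.27, 0.25 and -0.30 over genes, and DSS 2 and DSS 3 correlated best with another number. With the replicate block 0 of the 10 were called, Slc4a4 was at 1.46 and Car1 at 2.32, and 0 of all tested genes were called lower, against 13. That count was 280 with DESeq2, 52 scaled to epithelial markers and 0 to 3 with 1 library left out.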
